A study of Mus musculus with 17 samples.

Results

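The 36 genes described here form the sterol regulatory element-binding protein (SREBP) pathway of lipid synthesis, and were taken as a fixed list by gene symbol from the 35971 genes of mouse kidney RNA-seq tables. They comprise 5 regulators, 18 genes of a cholesterol arm, 11 genes of a fatty acid arm, and 2 genes, Acss2 and Aacs, that activate carbon units for both arms. All 36 were among the 17011 genes that passed the filter on low counts. Whole kidneys of 17 mice in 5 groups were sequenced as stranded mRNA libraries, with 16504419 to 24668827 estimated reads per library. The study asked how the PRCC-TFE3 fusion protein, the driver of a renal cell carcinoma, acts through HIF1α and HIF2α.

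Every mouse carried the lsl-PRCC-TFE3 KI allele at Rosa26, in which a stop cassette blocks the fusion until Cre removes it. The 4 Cre(-) mice had no KSP-Cre to remove the cassette, and replicates 1 and 2 of them also carried HIF1a f/f. The 3 KI mice had KSP-Cre, which the Cadherin 16 promoter drives in kidney epithelium. The 4 Hif1α KO mice had KSP-Cre with HIF1a f/f, the 3 Hif2α KO mice KSP-Cre with HIF2a f/f, and the 3 DKO mice KSP-Cre with both floxed alleles. The labels give no age and no treatment. Hif1a RNA, counted over the whole gene, was 163 to 198 CPM (counts over the scaled library total) in Hif1α KO and 174 to 203 CPM in DKO kidneys. It was 184 to 232 CPM in KI and 102 to 128 CPM in Cre(-) kidneys. Epas1 RNA, which encodes HIF2α, was 136 to 149 CPM in Hif2α KO and 155 to 165 CPM in DKO kidneys. Its level was 173 to 192 CPM in KI and 196 to 257 CPM in Cre(-) kidneys. These whole-gene values do not show whether the floxed exons were removed.

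SREBPs are transcription factors that are made as membrane proteins of the endoplasmic reticulum. When sterols are scarce, SCAP carries them to the Golgi, where proteases free the active part, and when sterols are plentiful INSIG proteins hold the SCAP-SREBP complex back. SREBP2, from Srebf2, mainly drives cholesterol synthesis and SREBP1, from Srebf1, mainly fatty acid synthesis, and INSIG1 is itself an SREBP target, so the pathway feeds back on itself.

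Promoter stretches of 3 members are shown because they carry the letters that bear on the study's factors. SREBPs bind sterol regulatory elements, TFE3 binds E-boxes, and HIF1α binds hypoxia response elements with a short core. The stretches are from RefSeq on GRCm38.p6, read 5′ to 3′ on the plus strand, and capitals mark TCACNCCAC, a form of sterol regulatory element, in Hmgcs1 (chr13:119690151-119690270), CACGTG in Insig1 (chr5:28071242-28071361) and GCGTG in Aacs (chr5:125475673-125475812).
Hmgcs1: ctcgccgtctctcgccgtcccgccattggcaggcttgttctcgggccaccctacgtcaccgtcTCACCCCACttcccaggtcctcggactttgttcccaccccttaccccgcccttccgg
Insig1: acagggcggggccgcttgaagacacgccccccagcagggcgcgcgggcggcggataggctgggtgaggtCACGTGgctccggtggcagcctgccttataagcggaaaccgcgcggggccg
Aacs: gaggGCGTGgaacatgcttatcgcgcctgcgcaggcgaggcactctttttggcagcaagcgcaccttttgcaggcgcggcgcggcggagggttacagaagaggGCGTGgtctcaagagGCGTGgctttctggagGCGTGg
A promoter window was listed for 29 members and for 27025 genes in all, and the 250 bases before each start were searched on both strands. TCACNCCAC was found in 1 member, Hmgcs1, where it begins 137 bases before the start, and in 1.22% of all genes. CACGTG was found in 5 members, Insig1, Scap, Hsd17b7, Sc5d and Dhcr7, and in 6.86% of all genes. The paper names another sequence, the M-box TCAYRTGA, for the factor family of TFE3, and the M-box was not searched here. Of the forms of the hypoxia response core, ACGTG, which overlaps CACGTG, was found in 8 members and 18.5% of all genes, and GCGTG in 17 members and 30.9% of all genes. The Aacs window held 4 copies of it. The letters CCAAT of the NF-Y site stood in all 14 cholesterol arm windows and in 4 of 8 fatty acid arm windows, against 37.5% of all genes. These matches describe letters and not bound sites. No window was listed for Fads1, Scd1, Fdft1, Sqle, Fdps, Stard4 and Scd2.

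The pathway did not move as a block when the fusion was active. In KI against Cre(-) kidneys 7 of the 36 members were higher and 16 lower. Every adjusted p here is from the quasi-likelihood test of edgeR, adjusted over all genes by Benjamini-Hochberg, and a call is a value under 0.05. Over all genes tested 31.6% were higher and 29.3% lower, so the 7 members were a smaller share, and the 16 a larger share, than in the background. Of the 5 regulators 3 rose, 6 of 8 cholesterol enzymes after lanosterol fell, and the fatty acid arm held 1 gene that rose and 5 that fell. The KI and Cre(-) values did not overlap for these 23 members, 7 higher and 16 lower, nor for 28.9% of all genes tested that were higher and 27.7% that were lower. The heat map of the members shows this division in each kidney.

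**Figure D1:**
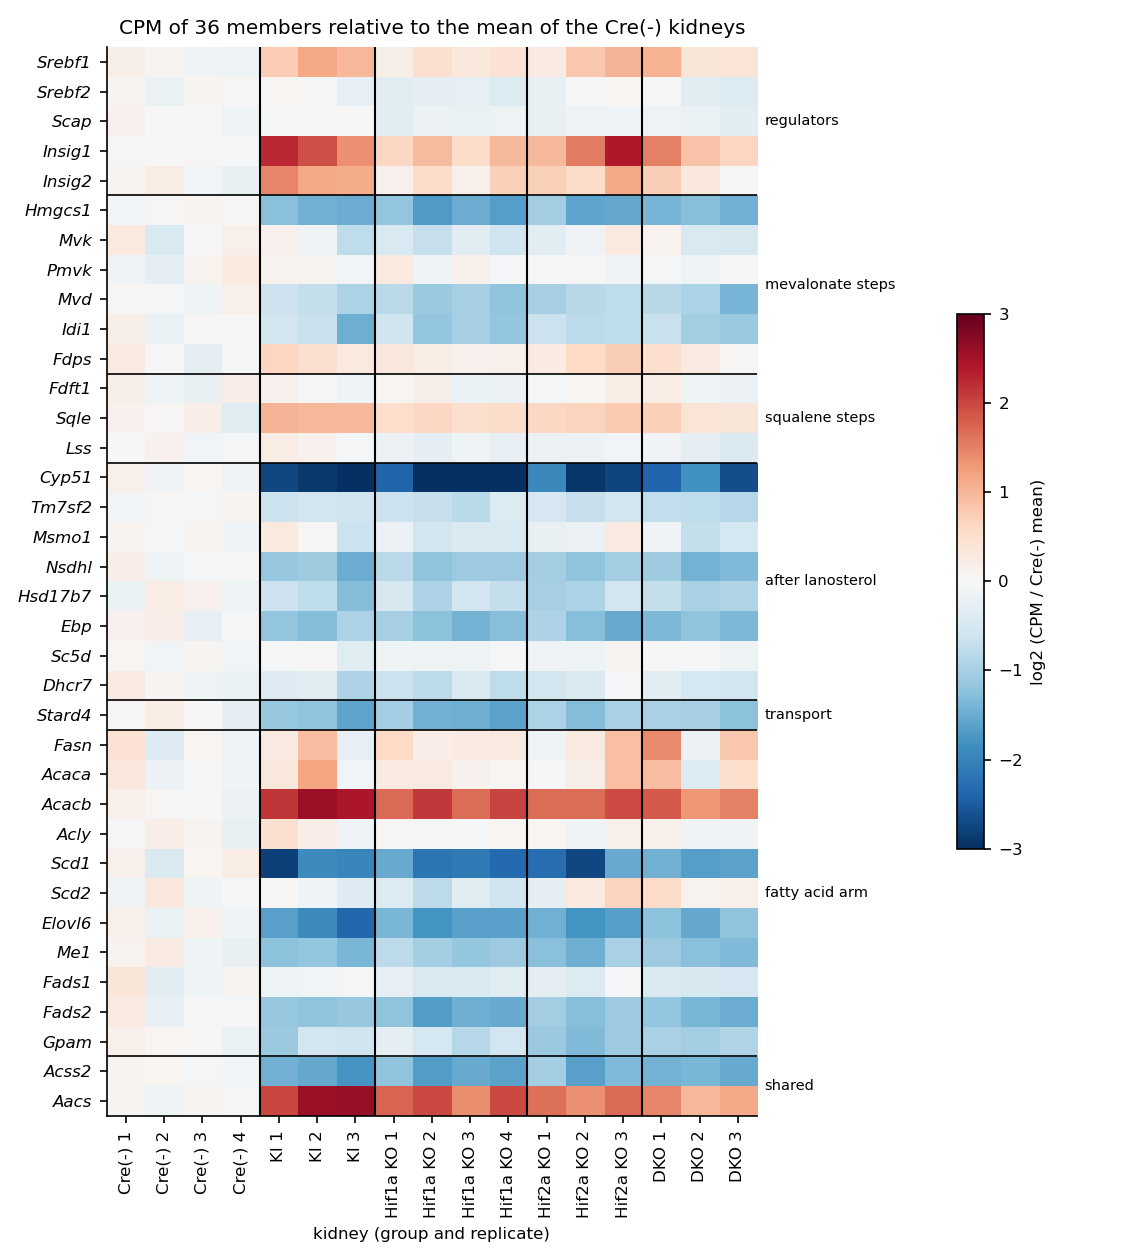
Heat map of the 36 members (rows, by role) in the 17 kidneys (columns), as log2 of CPM over the mean of the Cre(-) kidneys, with the colour scale from -3 to 3. Insig1, Insig2, Sqle, Acacb and Aacs are red in the KI kidneys, and Cyp51, Scd1, Elovl6 and Hmgcs1 are blue in all groups with Cre.

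Cell types changed with the fusion as well, and the members were read in whole kidney, where fewer cells of a type and less RNA per cell cannot be told apart. All 8 proximal tubule markers were lower in KI kidneys, with a summed level of 11296 to 12954 CPM in Cre(-) and 698 to 827 CPM in KI kidneys. It was 888 to 2350 CPM in Hif1α KO, 668 to 2069 CPM in Hif2α KO and 1307 to 1902 CPM in DKO kidneys. The 5 distal nephron markers were also all lower in KI, at 1033 to 1813 CPM against 7873 to 9535 CPM in Cre(-) kidneys, as were the 3 podocyte markers, at 102 to 153 CPM against 518 to 590 CPM. Macrophage markers were higher for 4 of 5, at 546 to 756 CPM against 171 to 231 CPM. Adipocyte markers were higher for 4 of 6, and their sum was 42.2, 124 and 1742 CPM in order of size in the 3 KI kidneys, 6.16 to 95.4 CPM in Cre(-), 19.6 to 254 CPM in Hif1α KO, 12.2 to 177 CPM in Hif2α KO and 12.4 to 168 CPM in DKO kidneys. The highest value belongs to KI replicate 2. Of the 6 adrenal cortex markers 3 passed the filter, and the sum of the 6 was 5.01 to 10.1 CPM over the 17 kidneys. Of these markers Cyp11b1 was at 0 to 0.108 CPM and Cyp11b2 at 0 in each kidney. A score of the proximal tubule markers, their mean log2 CPM, was 9.88 to 9.99 in Cre(-) and 5.0 to 5.81 in KI kidneys, so that the loss of this signal and the presence of the fusion cannot be told apart. With that score as a covariate 0 of the 36 members passed in KI against Cre(-) kidneys by edgeR, where 1.22% of all genes were higher and 0.118% lower. In that fit 5 members had an unadjusted p under 0.05. DESeq2 without the score called 23, where it called 31.4% of all genes higher and 29.8% lower.

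Among the regulators, both Insig genes and Srebf1 rose while Srebf2 and Scap did not pass. Insig1 was at 36.6, 35.6, 36.6 and 34.7 CPM in the 4 Cre(-) kidneys and at 172, 137 and 92.8 CPM in the 3 KI kidneys, 3.73-fold higher by the fit (log2 fold change 1.90, standard error 0.29, edgeR adjusted p = 3.37e-05). Insig2 was at 40.5, 44.6, 36.6 and 33.1 CPM in Cre(-) and 106, 85.7 and 83.5 CPM in KI kidneys, 2.37-fold higher. The lowest KI kidney was above the highest Cre(-) kidney for both genes, and KI replicate 1 was the highest. Srebf1 was at 52.7, 49.3, 43.9 and 42.4 CPM in Cre(-) and 79.7, 105 and 93.5 CPM in KI kidneys, 1.97-fold higher. Srebf2 was at 139, 116, 139 and 136 CPM against 138, 133 and 112 CPM (log2 fold change -0.05, standard error 0.10, edgeR adjusted p = 0.706). Scap, the escort protein, was at 96.3, 88.6, 88.4 and 80.0 CPM in Cre(-) and 85.1, 88.1 and 88.7 CPM in KI kidneys (log2 fold change -0.02, standard error 0.07, edgeR adjusted p = 0.847). For these last genes the groups overlapped.

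The transcripts of Srebf1 are given in TPM, a level per transcript length, as a description without a test. Of its 12 listed transcripts, transcript Srebf1-201 held 64.3% of the gene's estimated reads in Cre(-) and 43.6% in KI kidneys, and Srebf1-203, which starts further downstream, held 20.8% and 34.6%. Their levels were 7.89 ± 1.59 and 14.3 ± 5.29 TPM for Srebf1-201 and 2.66 ± 1.60 and 12.3 ± 4.23 TPM for Srebf1-203 (SD, n = 4 Cre(-) and 3 KI kidneys). The 3 protein-coding transcripts together were at 10.8 ± 1.77 TPM in Cre(-) (n = 4), 29.1 ± 3.17 TPM in KI (n = 3), 17.8 ± 2.04 TPM in Hif1α KO (n = 4), 26.6 ± 9.16 TPM in Hif2α KO (n = 3) and 24.7 ± 7.60 TPM in DKO kidneys (n = 3). Hif1α KO kidneys, from 15.7 to 19.9 TPM, lay below the KI kidneys, from 26.8 to 32.7 TPM, whereas Hif2α KO kidneys reached 35.3 TPM and DKO kidneys 33.4 TPM. The 9 non-coding transcripts made up 12.0 ± 2.66 TPM in Cre(-) (n = 4) and 42.7 ± 15.0 TPM in KI kidneys (n = 3). Short single-end reads divide transcripts of a gene with uncertainty, which these SDs do not hold. These TPM also carry a shift of the median gene, 0.38 higher in KI than in Cre(-) kidneys on log2(TPM + 1). The whole Srebf1 gene was 1.59 higher in KI kidneys on that scale and 1.13 higher on TMM-scaled TPM, against 0.98 in the fit of counts.

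In the cholesterol arm 2 of 18 genes were higher and 10 lower in KI kidneys, where 31.6% of all genes were higher and 29.3% lower. The median log2 fold change was -0.58, where the median of all genes tested was 0.03. Within the mevalonate steps 1 of 6 genes was higher and 3 lower. Hmgcs1, which makes HMG-CoA at the head of the pathway, was at 536, 584, 601 and 565 CPM in Cre(-) and 240, 209 and 203 CPM in KI kidneys, 2.63-fold lower (log2 fold change -1.40, standard error 0.14, edgeR adjusted p = 6.33e-07). Mvd, which decarboxylates mevalonate diphosphate, was 1.69-fold lower and Idi1, which isomerises the resulting isoprenoid unit, 1.80-fold lower. Fdps, which joins these units into farnesyl diphosphate, was 1.39-fold higher (edgeR adjusted p = 0.00910). The kinases between these steps did not pass, with log2 fold changes of -0.22 for Mvk and 0.03 for Pmvk.

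Of the 3 genes of the squalene steps 1 passed as higher, Sqle, a share near the 31.6% of all genes that were higher. Sqle, the squalene epoxidase, was at 65.5, 61.0, 69.0 and 46.8 CPM in Cre(-) and 122, 119 and 117 CPM in KI kidneys, 1.97-fold higher (log2 fold change 0.98, standard error 0.11, edgeR adjusted p = 1.61e-06). The 3 KI kidneys were close to each other and all above the Cre(-) kidneys. Its neighbours did not pass, with log2 fold changes of -0.01 for Fdft1, the squalene synthase, and 0.10 for Lss, which forms lanosterol. Exons of Fdft1 overlap those of Ctsb, at a mean of 367 TPM, on the opposite strand by up to 774 bases. Reads there could be divided between the genes. Lss was at 35.0, 37.8, 33.0 and 33.5 CPM in Cre(-) and 40.4, 37.8 and 34.1 CPM in KI kidneys, where the groups overlapped.

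All 8 enzymes after lanosterol had negative log2 fold changes, and 6 of them passed as lower, where 29.3% of all genes were lower. Cyp51, which removes a methyl group from lanosterol, fell most of all members. It was at 471, 394, 439 and 394 CPM in Cre(-) and 63.9, 57.2 and 37.0 CPM in KI kidneys, 8.06-fold lower (log2 fold change -3.01, standard error 0.30, edgeR adjusted p = 5.88e-07). Nsdhl and Ebp, which act on later sterols, were 2.33-fold and 2.22-fold lower, the reductases Hsd17b7 and Tm7sf2 1.84-fold and 1.52-fold lower, and Dhcr7, of the closing step to cholesterol, 1.47-fold lower. Msmo1 and Sc5d did not pass, at -0.05 and -0.12. Stard4, which carries cholesterol through the cytosol, was at 88.1, 100, 85.4 and 70.5 CPM in Cre(-) and 38.7, 36.8 and 28.5 CPM in KI kidneys, 2.48-fold lower (log2 fold change -1.31, standard error 0.16, edgeR adjusted p = 3.18e-06). Exons of Cyp51 overlap those of Akap9 on the opposite strand by up to 166 bases and those of Tm7sf2 overlap Vps51 on the same strand by up to 532 bases, and reads there could be divided between the genes.

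**Figure D2:**
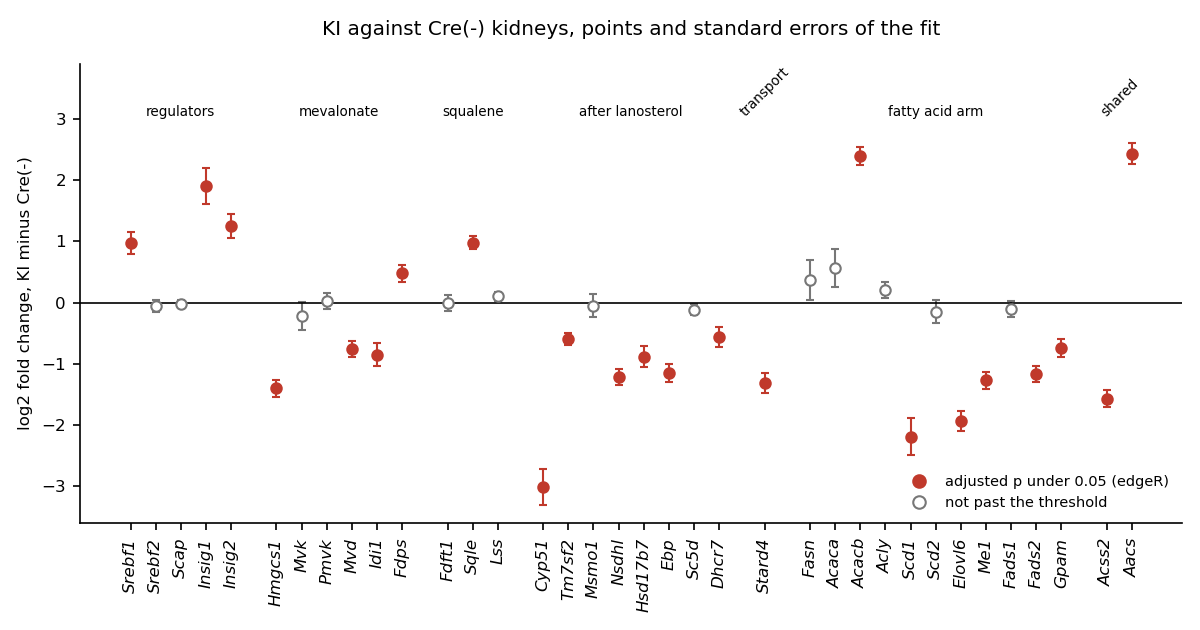
Log2 fold change of each member in KI against Cre(-) kidneys (points, with the standard error of the fit), ordered by role, with filled red points past the threshold. The steps after lanosterol lie at or below 0, down to -3.01 for Cyp51, and the fatty acid arm spans -2.19 for Scd1 to 2.39 for Acacb.

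In the fatty acid arm 1 of 11 genes was higher and 5 lower, where 31.6% of all genes were higher and 29.3% lower. The median log2 fold change was -0.15. Acacb, the acetyl-CoA carboxylase of the mitochondrial surface whose malonyl-CoA restrains fatty acid import, was at 79.5, 72.7, 71.3 and 63.0 CPM in Cre(-) and 316, 425 and 381 CPM in KI kidneys, 5.23-fold higher (log2 fold change 2.39, standard error 0.15, edgeR adjusted p = 5.50e-09). Scd1, which introduces a double bond, was at 1406, 931, 1312 and 1468 CPM in Cre(-) and 182, 334 and 323 CPM in KI kidneys, 4.57-fold lower (log2 fold change -2.19, standard error 0.30, edgeR adjusted p = 1.19e-05). Elovl6, which lengthens palmitate, was at 143, 112, 144 and 121 CPM in Cre(-) and 41.9, 34.6 and 25.4 CPM in KI kidneys, 3.82-fold lower (log2 fold change -1.93, standard error 0.16, edgeR adjusted p = 8.99e-08). Me1, a source of NADPH, Fads2, a desaturase of polyunsaturated fatty acids, and Gpam, which starts glycerolipid synthesis, were 2.41-fold, 2.25-fold and 1.67-fold lower. Scd1 and its paralog Scd2 are alike in sequence, so reads could be assigned between them.

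The core of fatty acid synthesis did not pass in KI kidneys. Fasn, the fatty acid synthase, was at 160, 90.3, 123 and 108 CPM in Cre(-) and 143, 223 and 99.3 CPM in KI kidneys (log2 fold change 0.37, standard error 0.33, edgeR adjusted p = 0.355). Acaca, the cytosolic acetyl-CoA carboxylase, was at 50.9, 35.4, 39.5 and 37.1 CPM against 51.1, 92.1 and 37.9 CPM (log2 fold change 0.57, standard error 0.31, edgeR adjusted p = 0.119). The groups overlapped for both, and KI replicate 2 was the highest KI kidney. Acly, which makes cytosolic acetyl-CoA, Scd2 and Fads1 had log2 fold changes of 0.20, -0.15 and -0.11, and did not pass.

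Adipocyte markers differed between kidneys of a group. KI replicate 2 had an adipocyte score of 6.33, against 1.75 and 2.08 in the other KI kidneys, and 1279 CPM of the adipocyte gene Cfd. In all 4 groups with Cre the kidney with the highest adipocyte score was also the highest in Acaca and in Srebf1, and in 3 of these 4 groups it was the highest in Fasn. It was the highest in Scd1 and in Thrsp, another gene of the pathway, in 3 of the 4 groups, and in Acly in 2. In Hif1α KO the kidney with the highest score, replicate 2, had the lowest Fasn value, 135 CPM. The kidney with the lowest score was the lowest in Acaca in 3 and in Fasn in 2 of the 4 groups. It was the lowest in Thrsp in 4, in Srebf1 and Scd1 in 3, and in Acly in 1. The DKO kidneys had the same order in Fasn and in the score, with 312, 105 and 205 CPM of Fasn at scores of 3.13, 0.06 and 2.75. The part of the adipocyte signal in these values was not tested. With the score as a covariate the arms had the same counts in KI against Cre(-) kidneys, at 2 higher and 10 lower in the cholesterol arm and 1 higher and 5 lower in the fatty acid arm.

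**Figure D3:**
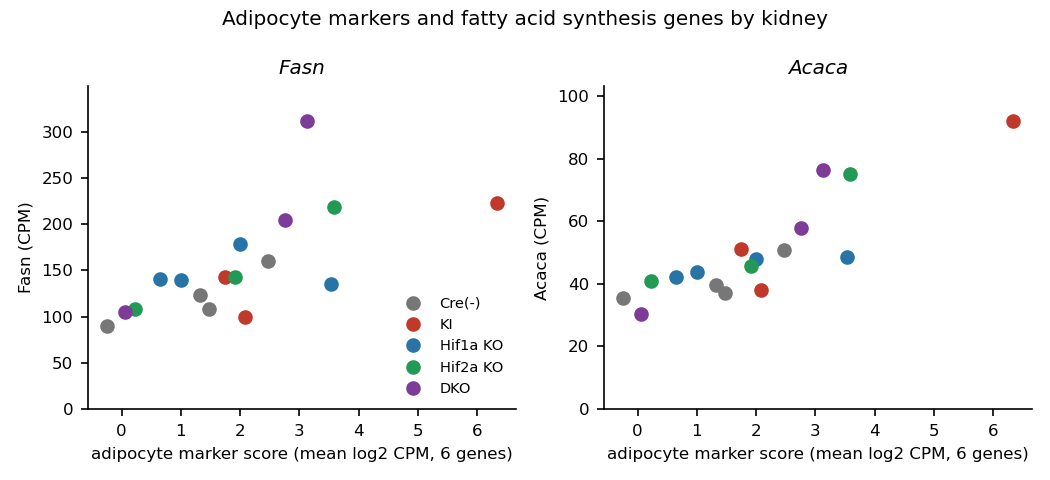
Fasn and Acaca (vertical axes, CPM) against the adipocyte marker score (horizontal axis, mean log2 CPM of 6 genes), with 1 point per kidney and a colour per group. KI replicate 2 lies alone at a score of 6.33, and Fasn and Acaca are low where the score is near 0.

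The shared genes moved in opposite directions and further than most members. Aacs, which activates acetoacetate for lipid synthesis, was at 51.5, 44.2, 50.8 and 47.2 CPM in Cre(-) and 195, 293 and 296 CPM in KI kidneys, 5.39-fold higher (log2 fold change 2.43, standard error 0.17, edgeR adjusted p = 1.41e-08). Acss2, which activates acetate, was at 182, 181, 166 and 163 CPM in Cre(-) and 63.9, 59.8 and 50.6 CPM in KI kidneys, 2.98-fold lower (edgeR adjusted p = 1.52e-07). Exons of Acss2 overlap those of Gss on the opposite strand.

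The arms were compared as a description. The median log2 fold change of the cholesterol arm minus that of the fatty acid arm was -0.43 in KI against Cre(-) kidneys, -0.22 with means in place of medians and -0.27 on TMM-scaled TPM. With the proximal tubule score as a covariate its sign turned, at 0.54. Per kidney, the mean log2 level relative to Cre(-) was -0.59 ± 0.21 for the cholesterol arm and -0.38 ± 0.18 for the fatty acid arm in KI kidneys (SD, n = 3). The difference between the arms was 0.01, -0.33 and -0.29 in the 3 KI kidneys and -0.09 to 0.05 in the 4 Cre(-) kidneys, so that KI replicate 1 lay within the Cre(-) range. It was -0.25 to -0.16 in Hif1α KO, -0.29 to 0.02 in Hif2α KO and -0.40 to -0.07 in DKO kidneys. Both arms lay below every Cre(-) kidney in all 13 kidneys with Cre, the cholesterol arm between -0.82 and -0.43 and the fatty acid arm between -0.60 and -0.13.

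**Figure D4:**
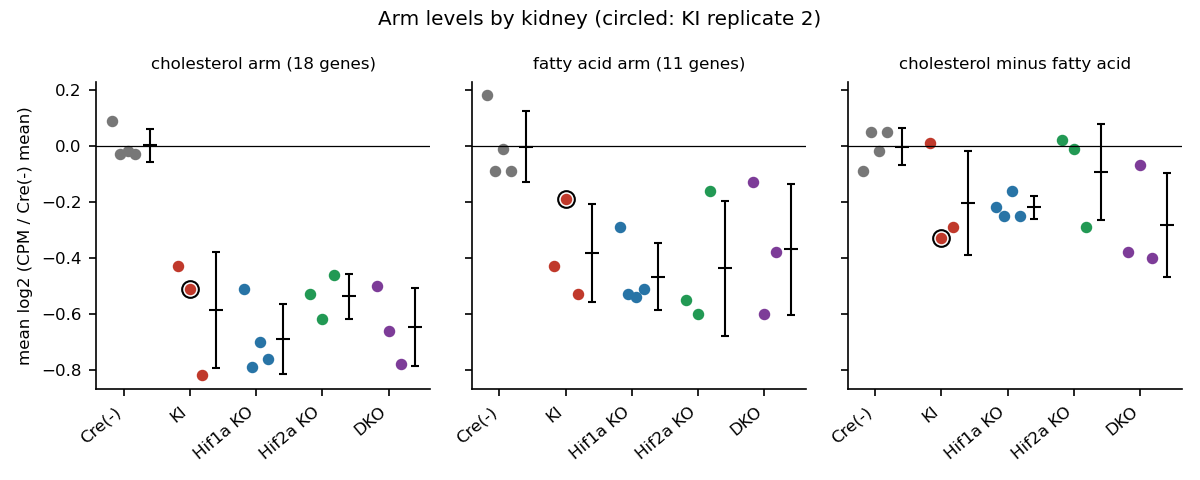
Mean log2 level of each arm relative to the Cre(-) mean (vertical axis), and the difference of the arms, with 1 point per kidney, bars for mean ± SD, and KI replicate 2 circled. The cholesterol arm of the KI kidneys is at -0.43, -0.51 and -0.82, below the Cre(-) kidneys at -0.03 to 0.09.

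The scaling of the unit changed the balance of these calls. On log2(TPM + 1) with limma the median gene itself was 0.38 higher in KI kidneys. On that scale 17 of the 36 members were called higher and 10 lower, where 52.0% of all genes were higher and 14.4% lower. The 17 were thus a smaller share, and the 10 a larger share, than in the background. After TMM scaling of the TPM, which removes that shift, 7 members were higher and 15 lower, where 28.2% of all genes were higher and 27.8% lower. Per length, the most abundant members in Cre(-) kidneys were Scd1, at 293 ± 42.3 TPM, Hmgcs1, at 202 ± 19.3 TPM, and Cyp51, at 128 ± 14.6 TPM (SD, n = 4). In KI kidneys the highest level was that of Aacs, at 425 ± 64.9 TPM, followed by Acly, at 110 ± 28.1 TPM, and Hmgcs1, at 106 ± 14.7 TPM (SD, n = 3), and Acly and Hmgcs1 lay within their SDs of each other. For Aacs 2 short non-coding transcripts, Aacs-205 and Aacs-206, gave 145 and 160 TPM of this level, while Aacs-201, the protein-coding transcript, gave 110 TPM.

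Of 16 other genes of the pathway, 3 passed as higher and 5 as lower in KI against Cre(-) kidneys, where 31.6% of all genes were higher and 29.3% lower. Mid1ip1, which promotes acetyl-CoA carboxylase activity, was 2.21-fold higher, and Acsl3 and Nr1h2, an acyl-CoA synthetase and the liver X receptor β, were 1.33-fold and 1.34-fold higher. Acat2, which supplies acetoacetyl-CoA, was 3.13-fold lower, Elovl5, an elongase, 1.79-fold lower, and Tmem97 1.28-fold lower. Pcyt2, of phosphatidylethanolamine synthesis, had a log2 fold change of -1.32 (edgeR adjusted p = 3.91e-07).

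With loss of Hif1α the changes were fewer and all downward. In Hif1α KO against KI kidneys 5 of 36 members were lower and 0 higher, where 2.86% of all genes were lower and 2.57% higher. At an unadjusted p under 0.05, 11 members were lower and 0 higher. DESeq2 called 8 lower and 0 higher, where it called 5.20% of all genes lower and 4.60% higher. No share over all genes is given for any count at an unadjusted p, so such counts have no background here. The 5 were Insig1, Insig2, Sqle, Lss and Aacs, which span regulators, the squalene steps and the shared genes, and include no gene of the fatty acid arm. Acacb of that arm was just short of the threshold (edgeR adjusted p = 0.0575), and DESeq2 called 1 gene of that arm lower. The same 3 KI kidneys stand in each comparison of a knockout with KI and in that with Cre(-). Median log2 fold changes were -0.09 in the cholesterol arm and -0.20 in the fatty acid arm, while the median of all genes lay within 0.01 of 0. The arm difference was 0.10, from -0.06 to 0.15 with a kidney left out, and its mean per kidney was -0.22 in Hif1α KO and -0.20 in KI kidneys.

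In the 4 Hif1α KO kidneys Insig1 was at 55.6, 69.6, 52.8 and 70.8 CPM, all below the 3 KI kidneys, and 2.15-fold lower than in KI (log2 fold change -1.10, standard error 0.28, edgeR adjusted p = 0.0341). Insig2 was at 42.0, 55.9, 42.7 and 62.7 CPM, 1.81-fold lower (log2 fold change -0.85, standard error 0.19, edgeR adjusted p = 0.0194). Sqle was at 86.8, 91.6, 83.4 and 87.7 CPM, 1.37-fold lower (log2 fold change -0.45, standard error 0.11, edgeR adjusted p = 0.0287). These levels remained above every Cre(-) value for Insig1 and Sqle, while for Insig2 they overlapped the Cre(-) range. Lss was at 30.6, 29.0, 31.6 and 29.2 CPM, below the 4 Cre(-) values too, and 1.24-fold lower than in KI (edgeR adjusted p = 0.0348). Aacs was at 163, 191, 128 and 191 CPM, 1.55-fold lower (edgeR adjusted p = 0.0346), with its highest value close to the lowest KI value of 195 CPM.

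The other regulators did not pass here. Srebf1 was at 53.4, 64.9, 58.3 and 63.0 CPM, below the KI values, with an edgeR adjusted p of 0.0531 (DESeq2 0.0136). Srebf2 was at 106, 109, 111 and 99.7 CPM and Scap at 70.7, 78.1, 76.3 and 79.3 CPM, also without overlap with KI, at log2 fold changes of -0.27 and -0.20. Of all members 10 did not overlap between Hif1α KO and KI kidneys, and 5 of these passed. No share of non-overlapping values over all genes is given for the knockout comparisons, so such values have no background here. Acacb was at 233, 309, 228 and 292 CPM, a log2 fold change of -0.50 (standard error 0.15, edgeR adjusted p = 0.0575). Of the genes that fell in KI kidneys, Cyp51 was at 80.0, 40.8, 52.0 and 46.8 CPM and Hmgcs1 at 252, 176, 202 and 183 CPM. Stard4 was at 42.1, 31.3, 31.0 and 28.1 CPM and Scd1 at 444, 278, 292 and 249 CPM. Their log2 fold changes against KI were between -0.10 and 0.17, none passed, and their values overlapped those of the KI kidneys.

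The Hif1α KO calls depended on single kidneys. Without KI replicate 2, the kidney rich in adipocyte markers, 1 of the 5 calls was left, that of Insig2. With the adipocyte score as a covariate 1 was left, again Insig2 (edgeR adjusted p = 0.0467), where 0.941% of all genes were higher and 1.16% lower. Without KI replicate 1 or Hif1α KO replicate 4 there were 2 calls, without KI replicate 3 there were 3, and without Hif1α KO replicate 1 or 3 there were 0. Without KI replicate 1 the 2 calls were Aacs and Acacb, and Acacb was not among the 5. Acacb, of the fatty acid arm, also passed without Hif1α KO replicate 2, and its lowest edgeR adjusted p in these fits was 0.0368. Log2 fold changes moved less, from -1.31 to -0.88 for Insig1, -0.97 to -0.73 for Insig2, -0.48 to -0.43 for Sqle, -0.38 to -0.26 for Lss and -0.81 to -0.53 for Aacs. Of the tubule markers 5 of 8 proximal and 2 of 5 distal ones were higher in Hif1α KO kidneys. With the proximal tubule score as a covariate 0 members passed by edgeR, where 0.0764% of all genes were higher and 0.118% lower, while 8 members had an unadjusted p under 0.05. The part of the tubule signal in these results was not tested.

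**Figure D5:**
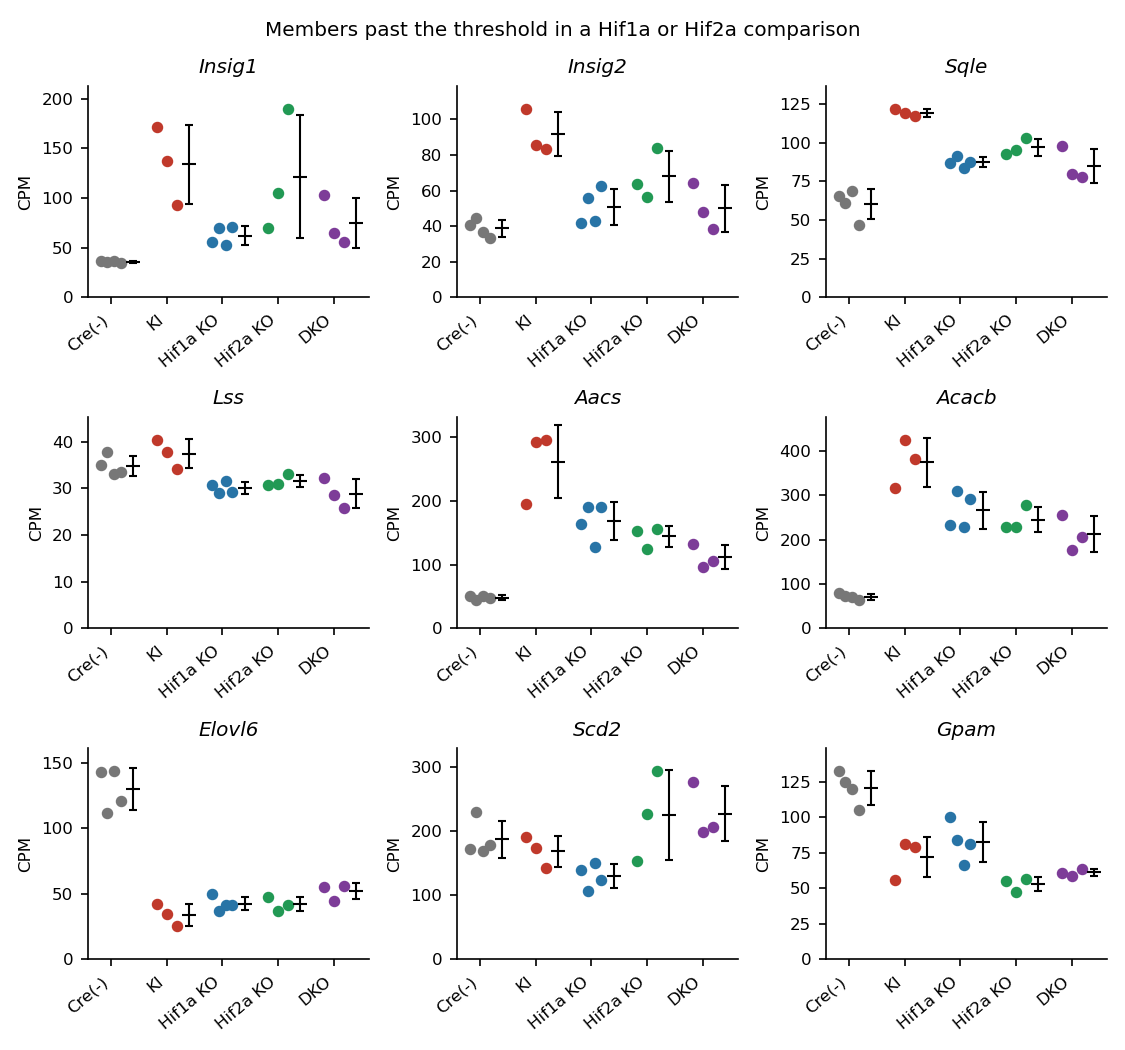
CPM of the 9 members past the threshold in a comparison of Hif1α or Hif2α loss (1 panel per gene), with 1 point per kidney and bars for mean ± SD. Sqle and Insig2 lie below the KI kidneys in Hif1α KO and DKO, Aacs falls to 95.9 to 133 CPM in DKO kidneys, and Insig1 spans 70.1 to 190 CPM in Hif2α KO kidneys.

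With loss of Hif2α alone 1 member passed, Aacs. In Hif2α KO against KI kidneys 0 of 36 members were higher and 1 lower, where 0.741% of all genes were higher and 0.647% lower. At an unadjusted p under 0.05, 6 were lower and 0 higher. DESeq2 called 2 lower and 0 higher, where it called 2.84% of all genes lower and 3.13% higher. Aacs was at 152, 125 and 156 CPM, below the KI kidneys, and 1.81-fold lower (log2 fold change -0.86, standard error 0.18, edgeR adjusted p = 0.0312). That call was lost in 5 of 6 fits that left out a KI or Hif2α KO kidney, all but that without KI replicate 1, in which 3 members were called, with an adjusted p of up to 0.154 for Aacs. The medians were 0.04 in the cholesterol arm and 0.01 in the fatty acid arm.

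Hif2α KO kidneys differed among themselves. Insig1 was at 70.1, 105 and 190 CPM, Insig2 at 63.6, 56.5 and 84.0 CPM, and Srebf1 at 55.2, 82.6 and 94.5 CPM, with replicate 3 the highest for each. That kidney also had the highest adipocyte score of its group, 3.59 against 0.22 and 1.92. Srebf2 was at 113, 134 and 138 CPM and Scap at 75.6, 79.7 and 81.3 CPM. Sqle was at 92.7, 95.4 and 103 CPM and Acacb at 228, 229 and 277 CPM, both below the KI kidneys without passing (edgeR adjusted p = 0.182 and 0.0601). Of all members 5 did not overlap between Hif2α KO and KI kidneys, and 1 of these passed.

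In DKO kidneys 5 members were lower than in KI kidneys and 1 was higher, where 6.19% of all genes were lower and 6.53% higher. The lower ones were Insig2, Sqle, Lss, Acacb and Aacs, and the higher one was Elovl6. Aacs was at 133, 95.9 and 106 CPM, 2.34-fold lower (log2 fold change -1.22, standard error 0.18, edgeR adjusted p = 0.00169), yet above every Cre(-) kidney. Acacb was at 256, 176 and 205 CPM, 1.76-fold lower (log2 fold change -0.82, standard error 0.16, edgeR adjusted p = 0.00562). Insig2 was at 64.2, 47.9 and 38.2 CPM, Sqle at 97.6, 79.8 and 77.7 CPM and Lss at 32.1, 28.6 and 25.8 CPM, with log2 fold changes of -0.88, -0.49 and -0.38. In each of these the DKO kidneys lay below the KI kidneys, and DKO replicate 1 was the highest of its group.

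Elovl6 was at 54.9, 44.8 and 56.1 CPM in DKO kidneys, 1.53-fold higher than in KI and still below the Cre(-) kidneys (log2 fold change 0.61, standard error 0.17, edgeR adjusted p = 0.0263). Insig1 was at 103, 64.8 and 55.9 CPM, with an edgeR adjusted p of 0.0789 that became 0.0349 without DKO replicate 1. Srebf1 was at 97.2, 60.7 and 61.9 CPM, Srebf2 at 126, 106 and 99.7 CPM and Scap at 78.8, 76.9 and 71.1 CPM, and none passed, although Srebf1 did without DKO replicate 1 (log2 fold change -0.59, edgeR adjusted p = 0.0475, against -0.34 with it). Cyp51 was at 81.3, 121 and 66.7 CPM, above the KI kidneys (log2 fold change 0.77, standard error 0.29, edgeR adjusted p = 0.0977, and -0.04 with the proximal tubule score), and Scd1 was at 466, 401 and 411 CPM, also above them (log2 fold change 0.61, edgeR adjusted p = 0.190). Of all members 12 did not overlap between DKO and KI kidneys, and 6 of these passed. Calls of Aacs and Acacb were kept in all 6 fits that left out a KI or DKO kidney, whereas Insig2, Sqle and Lss lost theirs without DKO replicate 2 or 3, where 3 and 2 members were called. Elovl6 lost its call without KI replicate 2 or 3 or DKO replicate 1 or 3. The fall of Aacs was also kept with the adipocyte score (edgeR adjusted p = 0.00363) and with the proximal tubule score (0.0476). Aacs was the 1 member left with the latter, where 0.300% of all genes were higher and 0.494% lower. Of the tubule markers 5 of 8 proximal and 4 of 5 distal ones were higher in DKO kidneys.

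The knockouts were then compared with each other. Between Hif1α KO and Hif2α KO kidneys 0 of 36 members passed, where 0.329% of all genes passed as higher in Hif1α KO and 0.0999% as lower. At an unadjusted p under 0.05, 1 member was higher and 7 were lower. DESeq2 called 1 higher and 2 lower, where it called 2.00% of all genes higher and 1.16% lower. Insig1 had a log2 difference of -0.97 (standard error 0.28, edgeR adjusted p = 0.126) and Insig2 of -0.42 (standard error 0.19, edgeR adjusted p = 0.308). Gpam was at 100, 83.9, 66.3 and 81.0 CPM in Hif1α KO and 55.3, 47.7 and 56.6 CPM in Hif2α KO kidneys, without overlap (log2 difference 0.64, standard error 0.14, edgeR adjusted p = 0.0700). Scd2 was at 139, 107, 150 and 123 CPM against 154, 226 and 294 CPM, also without overlap (log2 difference -0.79, standard error 0.19, edgeR adjusted p = 0.0871). Of all members 5 did not overlap between these 2 groups, and 0 of these passed. Without Hif2α KO replicate 1, 2 members passed, Insig1 (edgeR adjusted p = 0.0414) and Scd2 (0.0283).

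The 7 kidneys of the Hif1α KO and DKO groups were then set against the 6 of the KI and Hif2α KO groups, averaged over both states of the other gene. With loss of Hif1α 5 members were lower and 0 higher, where 2.67% of all genes were lower and 1.69% higher. These were Insig1, Insig2, Sqle, Lss and Aacs, with log2 differences of -0.91, -0.65, -0.32, -0.22 and -0.50 and edgeR adjusted p of 0.0253, 0.0194, 0.0348, 0.0461 and 0.0299. The values of the sets of kidneys overlapped for all 5. At an unadjusted p under 0.05, 14 members were lower and 1 higher. DESeq2 called 7 lower, where it called 5.19% of all genes lower and 4.08% higher. Loss of Hif2α, averaged in the same way, gave 3 members lower and 1 higher, where 3.5% of all genes were lower and 3.66% higher. These were Aacs (log2 difference -0.72, edgeR adjusted p = 0.00579), Acacb (-0.47, 0.0195) and Gpam (-0.44, 0.0209), which were lower, and Scd2 (0.61, 0.0200), which was higher. The Gpam values were 61.2, 58.8 and 63.9 CPM in DKO, and 55.6, 81.5 and 79.1 CPM in KI kidneys, and the Scd2 values were 276, 199 and 206 CPM in DKO and 190, 173 and 142 CPM in KI kidneys.

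Leaving out kidneys moved both sets of averaged calls. For loss of Hif1α the count ranged from 0 without Hif2α KO replicate 3 or DKO replicate 2 or 3 to 8 without DKO replicate 1. It was 1 without Hif1α KO replicate 3, 2 without KI replicate 1 or 2 or Hif1α KO replicate 1, and 3 without Hif1α KO replicate 4 or Hif2α KO replicate 2. For loss of Hif2α it was 2 without KI replicate 3 or DKO replicate 2 and 3 to 6 otherwise, and Aacs passed in all 13 of these fits. In the test of the interaction of both losses 0 members passed by edgeR or by DESeq2, with 0 and 1 at an unadjusted p under 0.05, and 0% of all genes passed by edgeR in either direction. Among the 16 other pathway genes, Nr1h3, the liver X receptor α, was 1.37-fold lower than KI in Hif1α KO kidneys (edgeR adjusted p = 0.0194). In Hif2α KO kidneys 0 of the 16 passed by edgeR, with 3 at an unadjusted p under 0.05 and 1 called by DESeq2. Nr1h3 was also 1.33-fold lower in DKO kidneys, and Lpin1, a phosphatidate phosphatase, was 2.07-fold lower with loss of Hif2α on average.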

How the data were processed

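Kidney mRNA libraries (TruSeq Stranded, single-end reads of 75 nt) of 17 mice were analysed. The methods name Trim Galore 0.6.6 with cutadapt 2.5, STAR 2.7.9a with the human build hg38, and RSEM, with an annotation of hg38 or GRCm38, and whether strand was used in counting is not given in the sources used here. The files list mouse transcripts. The authors deposited expected counts, estimates of reads per transcript that are not scaled between libraries, and TPM, which the authors scaled by transcript length and library. Of 119353 transcripts 116770 (97.8%) matched GENCODE M21, from which genes and GRCm38 positions were taken. Counts were summed to genes and rounded.

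edgeR 4.0.16 (R 4.3.3) fitted all libraries with TMM scaling, filterByExpr (minimum count 10) and a coefficient per group. Its quasi-likelihood p-values were adjusted by Benjamini-Hochberg over the 17011 genes tested, with a threshold of 0.05. CPM use TMM-scaled library sizes, and 3 counts equal 0.117 to 0.206 CPM, for counting error only. Library numbers run in blocks by group, apart from 1 DKO library among those of Hif2α KO, so that order and group cannot be told apart, and nothing states separate litters or days, so p-values measure the spread between these mice. Arm differences are medians of log2 fold changes without a test, and arm levels per kidney are means of log2(CPM + 0.5). Transcript shares were computed from the counts. Members named with values of each kidney are the regulators, the 3 members of each arm with the largest change in KI kidneys, and those past the threshold in a comparison of Hif1α or Hif2α loss, and other values are given to account for all members. The members and lists were chosen with earlier results of these data known. Tests were checked on simulated data. Alternatives were DESeq2 1.42.0, its size factors, no filter, the groups of a contrast alone (the 13 libraries with Cre for averaged effects), the replicate number as a block, limma 3.58.1 on log2(TPM + 1) and log2(TPM + 0.1), marker scores as covariates, each library left out, a minimum absolute log2 fold change of 0.58, other arm definitions, and Cre(-) replicates 3 and 4 alone. limma on TMM-scaled TPM was added after the data were seen. Of the other pathway genes counted, 1 that passed is not reported here by name.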

Additional observations from a re-analysis of the deposited data

Results flagged for a closer look

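Each group of 4 kidneys was screened for a kidney far from the other three in every member. Of 72 such sets 3 held a kidney whose gap to its nearest neighbour, over the range of the group, was above the 95% critical value of Dixon's test, where chance gives about 1 in 20. Srebf2 was at 116 CPM in Cre(-) replicate 2 and at 136 to 139 CPM in the others. Scd2 was at 230 CPM in the same kidney and at 169 to 178 CPM in the others. Fasn was at 179 CPM in Hif1α KO replicate 1 and at 135 to 141 CPM in the others.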

How the results depend on the processing

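The 23 calls in KI against Cre(-) kidneys kept their count within 1.5 times under every alternative but the proximal tubule score, with 0, and ranged from 22 to 24 with a kidney left out. The arm difference of -0.43 ranged from -0.46 to -0.35 with a kidney left out, and was -0.27 on TMM-scaled TPM, -0.22 with means and 0.54 with the proximal tubule score. That score reversed Srebf1 (-0.53) and Insig1 (-0.15) without a call, while log2(TPM + 1) and log2(TPM + 0.1) called Srebf2 (0.43 and 0.44) and Scap (0.55 and 0.56) higher, near the shift of the median gene of 0.38 and 0.48. For Hif1α KO against KI kidneys the 5 calls became 8 with DESeq2, 3 with its groups alone or a minimum absolute log2 fold change of 0.58, 1 on either TPM scale or with the adipocyte score, and 0 with the proximal tubule score, and 0 to 5 with a kidney left out. For Hif2α KO the 1 call became 2 with DESeq2 and 0 with its groups alone, on every TPM scale or with either score, with 5 to 7 members at an unadjusted p under 0.05, and 0 to 3 with a kidney left out. For DKO the 6 calls became 10 with DESeq2 and 1 with the proximal tubule score, and 2 to 7 with a kidney left out. Between Hif1α KO and Hif2α KO kidneys DESeq2 called 3, and 0 to 2 were called with a kidney left out. For averaged loss of Hif1α the 5 calls became 3 with the libraries with Cre alone or the adipocyte score and 1 on either TPM scale. They became 2 on TMM-scaled TPM or with the minimum fold change, and 0 to 8 with a kidney left out. With the proximal tubule score they became 0 (9 at an unadjusted p under 0.05), where 0% of all genes were higher and 0.0176% lower. For averaged loss of Hif2α the 4 became 2 on log2(TPM + 1) or with the minimum fold change and 1 on log2(TPM + 0.1), and 2 to 6 with a kidney left out. Arm differences of knockout comparisons stayed small, from -0.20 to 0.25 with a kidney left out: -0.06 to 0.15 (Hif1α KO), -0.02 to 0.25 (Hif2α KO), -0.11 to 0.09 (DKO), -0.20 to -0.02 (between knockouts), -0.12 to 0.09 and -0.06 to 0.10 (averaged losses). With the adipocyte score they were -0.13 (Hif1α KO), -0.12 (DKO) and -0.13 (averaged Hif1α), with the proximal tubule score -0.13, -0.12 and -0.25, and -0.08 with means for DKO. The next tally covers the 16 of 36 members chosen for values of each kidney by the rule given above, and not the others. Over these members, comparisons and alternatives 1863 values kept their side of the threshold, of which 69, called in neither fit, changed sign. Of the rest 175 lost a call, 36 gained one, and 6 with a call in either fit changed sign. The cause of these changes was not tested.

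Replicate numbers come from the titles, and nothing states that they pair mice: deviations of kidneys with the same number had a mean correlation of -0.02 (31 pairs, -0.22 to 0.25), and of different numbers 0.01 (84 pairs). With a replicate block the counts were 23 for KI, 1 for Hif1α KO, 0 for Hif2α KO, 6 for DKO, 0 between knockouts, and 1 and 2 for the averaged losses of Hif1α and Hif2α. Reads of 75 nt and whole kidneys limit what transcripts and cell types can be told apart, and groups hold 3 or 4 mice.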
